A study of Arabidopsis thaliana with 28 samples.

Results

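Acetylation of lysine 9 of histone H3 (H3K9ac) was compared between 2 eChIP libraries and 2 PHILO libraries of the depth labelled 10M reads, out of the 28 libraries of the series. Chromatin immunoprecipitation (ChIP) collects DNA wrapped around histones that an antibody binds. eChIP, an enhanced form of the method, was run in microcentrifuge tubes with more of the H3K9ac antibody, and PHILO, a form for many small samples, was run mostly in PCR tubes with the same antibody. All 4 libraries came from untreated whole seedlings of the wild-type accession Col-0 of Arabidopsis thaliana, aged 10 days and grown in long days, and replicates are numbered 1 and 2 in each group. No transgene or mutation was involved. Both eChIP titles start with the word PHILO too, and the groups were taken from the method named after it. The study calls the eChIP replicates biological and the libraries of the depth series independently processed, and whether each was a separate harvest was not given in the sources used here. The p-values below refer to these libraries only. How far the spread between them entered differed between the fits and is stated where it was small. The libraries carry no label of a preparation date or harvest hour, and the method and a batch cannot be told apart.

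The members were genomic regions, chosen by whether a domain was called in them. A domain is a stretch that the caller epic2 found enriched over IgG, that is, over a precipitation with an antibody of no target. The domains of the 4 libraries on chromosomes 1 to 5 were merged where they overlapped, which gave 14484 regions. Of these, 12663 held a domain in all 4 libraries and entered the count comparison, 127 held one in both eChIP libraries and neither 10M library (eChIP-only regions), and 767 held one in both 10M libraries and neither eChIP library (10M-only regions). The other 927 regions had a domain in 3 libraries (484), in 1 library (386) or in 1 library of each group (57), and were only counted.

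H3K9ac is deposited by histone acetyltransferases and removed by deacetylases, and it marks nucleosomes just downstream of the start sites of active genes. In seedlings it is known to be prominent at photosynthesis genes in the light, to vary over the day at genes of the circadian clock, and to rise rapidly at genes that respond to touch, wounding and the hormone jasmonate. Among the 20 green-tissue genes checked (light-harvesting proteins and the small subunits of Rubisco), domains covered part or all of every gene in both 10M libraries and left 3 uncovered in both eChIP libraries (CAB3, LHCB1.1, RBCS2B). Domains overlapped 3 of 12 root genes in both eChIP libraries (GL2, CASP2, SCR) and 4 of 12 in both 10M libraries (SHR as well). They overlapped none of 12 seed or 7 flower genes in any of them. At GL2 they covered 240 and 240 of 4485 bp in eChIP and 240 and 40 bp in 10M. At CASP2 they covered 548 of 1171 bp in each library. At both genes the covered bases lay at the far end and did not include the start site. In whole seedlings, fewer cells with the mark and less mark per cell cannot be told apart.

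The 250 bases before the start sites of 5 genes are printed because the domains of the 4 libraries reached them to a different extent. At TOC1 and CCA1 the 10M replicates differed from each other. They are given 5′ to 3′ in the direction of the gene, from the RefSeq sequence of TAIR10.1, whose chromosomes have the coordinates of the TAIR10 build of the files. Capitals mark 4 motifs searched on both strands: the evening element AAAATATCT, which is known from evening-phased clock genes, the G-box CACGTG, which bHLH and bZIP factors bind, the light-associated I-box GATAAG, and the TATA motif TATAAA.
JAZ10 (chr5:4218536-4218785, forward strand): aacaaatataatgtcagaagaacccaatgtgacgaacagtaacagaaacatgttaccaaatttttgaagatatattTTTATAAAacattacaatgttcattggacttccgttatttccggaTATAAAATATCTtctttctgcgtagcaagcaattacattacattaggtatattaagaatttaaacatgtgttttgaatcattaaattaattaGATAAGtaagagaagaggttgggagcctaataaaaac
JAZ7 (chr2:14572780-14573029, forward strand): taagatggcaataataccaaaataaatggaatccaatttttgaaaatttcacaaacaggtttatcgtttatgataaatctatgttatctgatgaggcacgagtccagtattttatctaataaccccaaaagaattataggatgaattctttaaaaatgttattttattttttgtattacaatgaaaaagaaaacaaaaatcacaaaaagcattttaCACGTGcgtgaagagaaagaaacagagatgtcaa
TOC1 (chr5:24674713-24674962, forward strand): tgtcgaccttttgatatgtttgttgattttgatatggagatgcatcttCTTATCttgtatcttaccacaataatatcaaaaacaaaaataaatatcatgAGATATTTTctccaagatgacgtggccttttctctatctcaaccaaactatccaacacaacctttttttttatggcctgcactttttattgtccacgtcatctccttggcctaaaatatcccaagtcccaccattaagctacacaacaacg
CCA1 (chr2:19245341-19245590, forward strand): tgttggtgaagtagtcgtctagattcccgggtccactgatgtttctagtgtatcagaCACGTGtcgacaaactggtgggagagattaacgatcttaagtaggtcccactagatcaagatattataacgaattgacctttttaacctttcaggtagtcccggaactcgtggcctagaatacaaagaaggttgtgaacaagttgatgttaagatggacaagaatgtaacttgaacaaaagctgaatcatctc
RBCS1A (chr1:25049668-25049917, reverse strand): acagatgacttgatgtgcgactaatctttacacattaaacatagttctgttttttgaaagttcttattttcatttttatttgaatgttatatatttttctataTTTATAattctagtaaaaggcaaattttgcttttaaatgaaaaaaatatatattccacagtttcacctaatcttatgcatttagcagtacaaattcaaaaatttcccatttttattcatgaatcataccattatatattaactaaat

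The domains of both eChIP libraries covered the whole window of JAZ10 and those of both 10M libraries covered none of it. In the window of JAZ7, 229 and 29 bases were covered in eChIP replicates 1 and 2 and 0 in both 10M libraries. The window of TOC1 was covered whole in both eChIP libraries, in 10M replicate 2 and not at all in 10M replicate 1. That of CCA1 was covered in neither eChIP library nor in 10M replicate 1, and was covered whole in 10M replicate 2. At RBCS1A, neither eChIP library had a domain in the window, and both 10M libraries covered 133 bases of it. Of all 27444 protein-coding genes, the window was covered whole at 19.8% and 19.4% in the eChIP libraries and at 17.2% and 17.3% in the 10M libraries.

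The window of JAZ10 held an evening element 126 bases before the start site, an I-box and 3 TATA motifs, of which 2 overlap each other on opposite strands and the third overlaps the evening element. That of JAZ7 held a G-box 34 bases before the start site, and that of CCA1 a G-box at 193 bases. The window of TOC1 held an evening element and an I-box, both on the reverse strand, and that of RBCS1A a TATA motif on the reverse strand. Among 27443 such windows, the evening element occurred in 2.36%, the G-box in 6.49%, the I-box in 12.3% and the TATA motif in 47.3%. In the lists of genes described below, the evening element occurred at 3 of 11 clock genes (LUX, PRR5, TOC1), at 3 of 19 touch and wound genes (LOX3, JAZ10, ZAT12) and at none of 20 photosynthesis genes, and the G-box at 5, 4 and 5 of them in the same order of lists. A match describes these letters and is no evidence that a factor binds there.

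The eChIP libraries held fewer and longer domains than the 10M libraries at a similar depth. Depth was recovered from the deposited values and is given relative to the mean of the 10M libraries, at 80.7% and 91.7% in the eChIP libraries and 94.9% and 105% in the 10M libraries. The eChIP libraries had 13666 and 13884 domains with a median length of 1200 bp, which covered 22.9 and 23.7 Mb. The 10M libraries had 15181 and 15238 domains with a median of 1000 bp, which covered 20.1 and 20.3 Mb. Inside the domains lay 4364548 and 5234690 ChIP reads in eChIP and 6712157 and 7244177 in 10M. Values per region are given below as raw counts or as CPM (the count as a share of the library's total in the 12663 shared regions, adjusted by TMM, the scaling of edgeR), and log2 fold changes are those of eChIP over 10M with their standard error.

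Over the 12663 shared regions, 3514 differed between eChIP and 10M in ChIP count, 27.8% of those tested (edgeR quasi-likelihood test, Benjamini-Hochberg adjusted p under 0.05). Of these, 1482 were higher in eChIP, 11.7% of the regions tested, and 2032 were lower in eChIP, 16.0%. The median log2 fold change was 0.54 in the regions that rose, -0.52 in those that fell and 0.01 over all regions tested. Regions that rose were longer, with a median length of 2600 bp against 1600 bp over all regions. They had a lower H3K9ac level in the PHILO 5M libraries (a median of 162 ChIP reads per kb against 189 over all regions). Regions that fell had a median of 218 reads per kb in the 5M libraries. The 5M libraries took no part in the comparison but share the method and the depth series with 10M, so their level is not independent of the 10M side. The common dispersion, the spread between libraries beyond that of read counting, was 0.00563 in this fit. With 1 of the 10M libraries left out it was 0.0109, from the eChIP pair. With 1 of the eChIP libraries left out it was 0.0014, from the 10M pair. The eChIP libraries thus differed more from each other, and the calls rest on a spread pooled over both pairs. When the counts were scaled by the recovered library size, the median log2 fold change of all regions moved to -0.27 and 5795 regions were called, 9.23% of them higher, so directions here are relative to the median region.

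The change in count went with the change in the length called. Across the shared regions, Pearson's r between the log2 ratio of covered length and the log2 fold change of the count was 0.77 over 12663 regions, which share the 4 libraries and are not independent. Of the regions that rose, 88.9% had more covered bases in both eChIP libraries than in both 10M libraries, and of those that fell, 27.6% had fewer. Over all shared regions, 4092 were covered longer in both eChIP libraries and 713 shorter. A single eChIP domain in both libraries replaced 2 or more 10M domains in both libraries at 242 regions, and the opposite was seen at 50. With an offset for the covered length, 1734 regions were called and 3.34% of them were higher, 1000 were also called without it, and 764 of these kept their sign. The median log2 fold change of all regions was then -0.23. Values with the length offset given below are relative to 0 and not to that median.

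**Figure D1:**
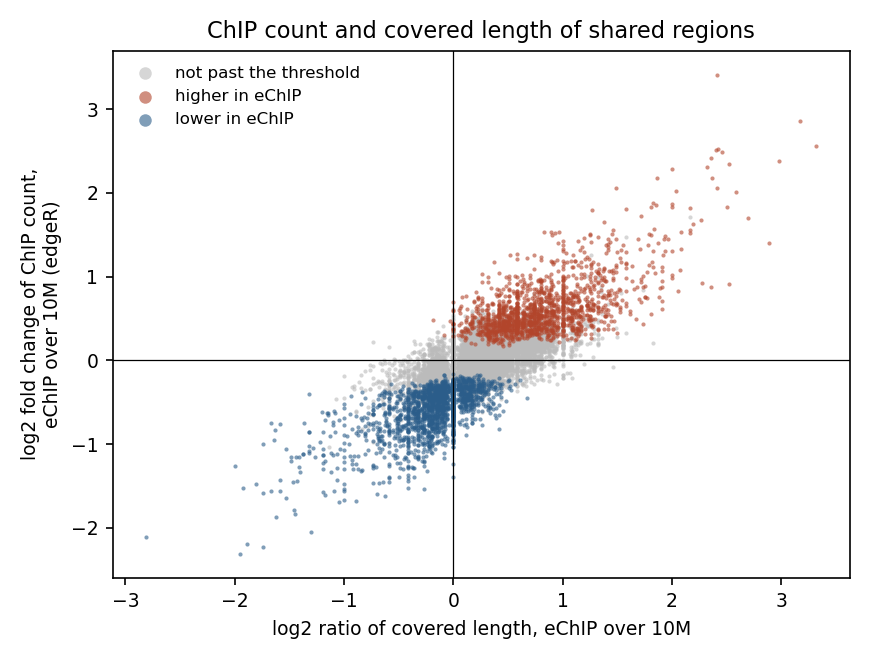
Each point is 1 of the 12663 shared regions, with the log2 ratio of covered length (eChIP over 10M, mean of the 2 libraries of each group) on the x axis and the edgeR log2 fold change of the ChIP count (eChIP over 10M) on the y axis. Regions that rose in eChIP (1482) lie mostly at the upper right, where eChIP covered more bases, and those that fell (2032) lie on both sides of equal length.

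The domains reached further downstream of the start site in eChIP, and upstream the groups differed in the mean reach but not in the median. In 4733 shared regions with exactly 1 protein-coding start site, the median reach downstream of the start site was 1094 and 1143 bp in the eChIP libraries and 925 and 929 bp in the 10M libraries, a mean of 1118.5 ± 34.6 bp against 927 ± 2.83 bp (SD, n = 2 each). Both eChIP libraries lay above both 10M libraries, with a difference of 191.5 bp and an exact permutation p of 0.3333, the smallest that 2 against 2 libraries allow. The median reach upstream was 54 and 48 bp in eChIP and 50 and 50 bp in 10M, so that the groups overlapped. Its mean over regions was 397 ± 18.1 bp in eChIP and 332 ± 0.209 bp in 10M (SD, n = 2 each), without overlap.

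A position 1 kb inside the gene lay in a domain at 54.6% and 58.7% of these regions in the eChIP libraries and at 36.9% and 37.3% in the 10M libraries. At 0.3 kb the shares were 97.5% and 97.5% in eChIP and 97.1% and 97.2% in 10M. At 0.5 kb upstream they were 23.6% and 22.4% in eChIP and 16.7% and 16.9% in 10M. The start site itself lay between the first and last covered base at 75.0% and 74.2% of the regions in eChIP and at 78.4% and 78.7% in 10M, the reverse order of the groups. The end of the gene was reached at 8.13% and 8.22% in eChIP and at 6.57% and 6.74% in 10M.

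**Figure D2:**
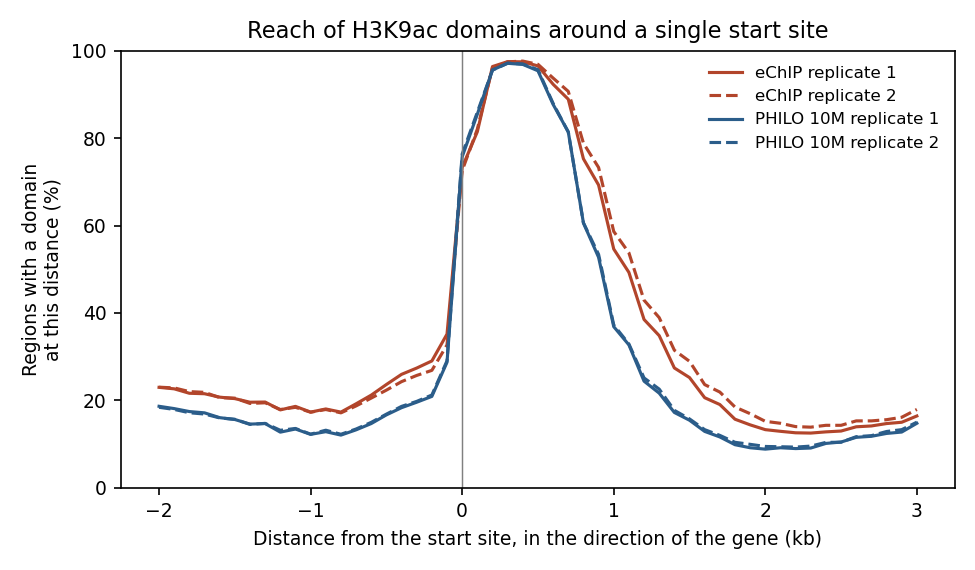
Lines show, for each of the 4 libraries, the percentage of 4733 regions with 1 start site in which a domain covers a position, against the distance from the start site in kb in the direction of the gene. The lines meet near 0.3 kb and part further into the gene, where at 1 kb the eChIP libraries stand at 54.6% and 58.7% and the 10M libraries at 36.9% and 37.3%.

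By position in the gene, the balance of calls leaned to lower counts where no start site was included. Of 6983 shared regions that include a start site, 14.5% were higher and 14.3% lower in eChIP. Among 4911 regions wholly inside a gene, 8.02% were higher and 16.3% lower. Among 511 regions that include a gene end and no start site, 10.8% were higher and 33.9% lower, with a median log2 fold change of -0.16. Among 215 regions that touch only other annotated genes, such as those of non-coding RNAs, 7.91% were higher and 25.1% lower. Most regions inside a gene began close to its start, with 95.7% of the 4911 within 500 bp of it, and in those that fell the midpoint lay at a median of 44.3% of the gene's length, against 29.0% over all.

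ChIP counts over IgG counts, scaled for library size, were lower in eChIP over the same regions. The ratio was 3.05 and 3.14 in the eChIP libraries and 4.60 and 4.44 in the 10M libraries, a difference of -1.43 (exact permutation p of 0.3333, the smallest possible). The gap grew with the level of the mark in the PHILO 5M libraries. In the lowest quartile of that level the ratio was 2.397 and 2.445 in eChIP and 3.165 and 3.081 in 10M, and in the highest quartile 3.81 and 3.99 in eChIP and 6.40 and 6.14 in 10M. Likewise, 18.8% of the regions of the lowest quartile were higher in eChIP and 9.40% lower, while in the highest quartile 4.92% were higher and 27.7% lower. With quartiles taken from the libraries of 1 mg of tissue instead, the median log2 fold change of the highest minus the lowest quartile was -0.09 rather than -0.25. In those quartiles, 18.2% of the lowest and 4.88% of the highest were higher in eChIP, while 18.7% of the lowest and 18.3% of the highest were lower, so the gradient in lower counts was not seen there.

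**Figure D3:**
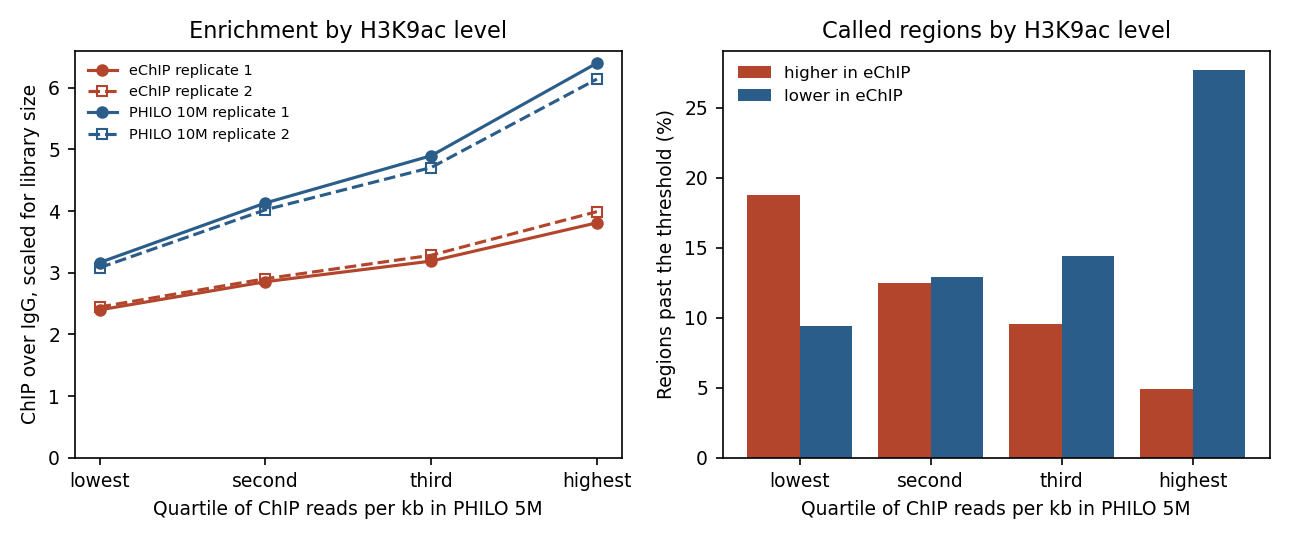
Left, ChIP over IgG scaled for library size in each of the 4 libraries, against the quartile of ChIP reads per kb in the PHILO 5M libraries. Right, bars give the percentage of regions higher and lower in eChIP in the same quartiles. The eChIP libraries rise to 3.81 and 3.99 in the highest quartile and the 10M libraries to 6.40 and 6.14, and the share of lower regions reaches 27.7% there.

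In 1041 domains the borders were identical in all 4 libraries, so that counts could be compared at equal length. Here 429 differed, 41.2% of those tested, by the same edgeR test, and 41.7% of these were higher in eChIP. The common dispersion of this fit was 9.77e-05, against 0.00563 over the shared regions. Its standard errors and p-values therefore reflect mainly the number of reads and little of the spread between libraries. With 10M replicate 1 or 2 left out, 271 or 281 were called. The log2 fold changes ran from -1.23 to 0.86, a narrower range than over all shared regions. The greatest fall was at AT3G18050 (chr3:6180801-6182600), with 269 and 301 ChIP reads in eChIP and 1023 and 1094 in 10M, a log2 fold change of -1.23 ± 0.07. FP3, a metal-binding farnesylated protein, had 350 and 383 reads in eChIP and 976 and 1145 in 10M (-0.87 ± 0.06). BKI1, an inhibitor of the brassinosteroid receptor, had 195 and 270 in eChIP and 610 and 663 in 10M (-0.79 ± 0.07). The groups did not overlap at any of these genes.

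At BGAL4 and CYP707A1, domains of equal borders that rose, raw counts overlapped between the groups, so that the rise is relative to the other domains fitted. BGAL4, a beta-galactosidase, had 71 and 119 reads in eChIP and 84 and 89 in 10M, a log2 fold change of 0.80 ± 0.13. CYP707A1, which breaks down abscisic acid, had 191 and 230 in eChIP and 201 and 237 in 10M (0.60 ± 0.09). DESeq2 called 163 of these domains, of which 22.1% were higher in eChIP, and gave 81 no adjusted p. Scaling by the totals in domains gave 474, of which 62.2% were higher. With the recovered library size 883 were called and 0.340% of them were higher.

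Photosynthesis genes stood lower in eChIP than in 10M almost throughout. The list held the 20 light-harvesting and Rubisco small-subunit genes, which lay in 16 shared regions because neighbours share domains, and 15 of these regions fell and none rose, against 16.0% lower and 11.7% higher over all regions. Their median log2 fold change was -0.81, against 0.01 over all regions tested. Between 10 and 16 of the regions were lower and none higher in each alternative that kept all 16. The exception was LHCB4.1, a minor antenna protein of photosystem II, at 353 and 325 CPM in eChIP and 376 and 391 in 10M (-0.18 ± 0.06, adjusted p 0.0657). In every region of the list, both libraries of 1 mg of tissue also lay below both 10M libraries when scaled for depth. Lower values than in 10M were therefore not limited to eChIP, and what sets the 10M libraries apart was not tested.

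The greatest fall of the list was in the cluster of CAB3, LHCB1.1 and CAB1, which encode the main antenna protein of photosystem II (chr1:10472001-10479600). It held 57.1 and 67.4 CPM in eChIP and 290 and 284 in 10M, a log2 fold change of -2.20 ± 0.09 (adjusted p 9.37e-05). The domains covered 1800 and 2200 bp in eChIP and 7600 and 7200 bp in 10M. In both eChIP libraries they covered 1116 bp of CAB1 and no base of CAB3 or LHCB1.1, whereas both 10M libraries covered all 3 genes from end to end. RBCS2B and RBCS1B, 2 genes of the Rubisco small subunit, followed with 54.1 and 46.5 CPM in eChIP and 196 and 161 in 10M (-1.83 ± 0.13, adjusted p 0.000293). RBCS2B itself had no domain in either eChIP library and 1165 and 1094 covered bp in the 10M libraries. Of the 1200 windows of 31 bases in CAB1, 32.1% occur again on chromosomes 1 to 5, and 29.6% of those of RBCS2B, so that reads of these near-identical copies cannot be assigned with certainty. Scaled to the mean 10M depth, the CAB3 cluster counted 306 and 383 in eChIP and 1974 and 1876 in 10M. The PHILO 5M libraries had 1772 and 1968 there. Values were 770 and 674 with 1 mg of tissue and 883 and 880 with 100K nuclei. Domains of these other libraries can extend beyond the region, which those of eChIP and 10M cannot.

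A lower count was also seen at LHCA3, where the covered length was the same. LHCA3, an antenna protein of photosystem I, had a domain with identical borders in all 4 libraries (chr1:22699401-22702200). It held 474 and 517 reads in eChIP and 973 and 1082 in 10M. The log2 fold change was -0.56 ± 0.08 among the shared regions (adjusted p 0.00272) and -0.39 ± 0.06 among the domains of equal borders (adjusted p 5.67e-10). The smaller p-value comes from the fit that took up little of the spread between libraries. At other genes the length differed too. RBCS1A, the most expressed small-subunit gene of leaves, had 133 and 113 CPM in eChIP and 246 and 223 in 10M (-0.93 ± 0.09), over 3000 bp in both eChIP libraries and 4000 bp in both 10M libraries. LHCB5, another minor antenna protein, had 103 and 115 in eChIP and 219 and 217 in 10M (-0.99 ± 0.07), over 2600 and 3000 bp in eChIP and 3800 and 3400 bp in 10M. LHCB2.3 held 28.7 and 24.8 in eChIP and 55.9 and 58.5 in 10M over 800 bp in eChIP and 2000 bp in 10M, and with the length offset its value was 0.22. LHCA1, in a region of several genes, moved least among those called, with 459 and 452 in eChIP and 542 and 542 in 10M (-0.25 ± 0.05, adjusted p 0.00805).

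Regions of circadian clock genes were called in both directions. The list held 11 genes, of which 8 lay in shared regions. Of these regions, 3 rose (PRR5, TOC1, ELF3), 2 fell (PRR9 and the region that CCA1 shares with PSI-P) and 3 did not pass the test (GI, LUX, PRR7), against 11.7% higher and 16.0% lower over all regions tested. RVE8, an activator of evening-phased genes, had domains in the 10M libraries only, with 441 and 456 reads, and LHY and ELF4 had no domain in any of the 4. With the offset for covered length none of the 8 was higher and 2 were lower, with a median of -0.24 against -0.23 over all regions. With the recovered library size 2 were higher and 4 lower.

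CCA1 and PRR9 are known to be expressed around dawn and in the morning. Domains covered 0 bp of CCA1 in either eChIP library and 1200 and 1410 bp of it in the 10M libraries, so that eChIP gave no count for this gene. The merged region in which it lies (chr2:19243201-19247000) also holds its neighbour PSI-P, a thylakoid protein, and all eChIP reads of the region lay outside CCA1. The region held 79.3 and 75.7 CPM in eChIP and 171 and 169 in 10M, a log2 fold change of -1.14 ± 0.07 (adjusted p 0.000244), which is not a measure of CCA1 alone. In 10M replicate 1, the domain on CCA1 held 245 of the 1103 reads of the region, and in 10M replicate 2 a single domain overlapped both genes. When covered length was allowed for, the log2 fold change of the region was 0.05. PRR9 (chr2:19232601-19235400) was covered over 2600 bp in each of the 4 libraries and held 281 and 352 reads in eChIP and 770 and 836 in 10M (-0.85 ± 0.08, adjusted p 0.000674). Here the counts fell at equal length, although 33.6% of the region's windows of 31 bases occur more than once on chromosomes 1 to 5.

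PRR5 and TOC1, repressors known to be expressed in the afternoon and evening, had higher counts in eChIP. PRR5 (chr5:8356601-8358600) held 79.3 and 75.7 CPM in eChIP and 39.0 and 29.5 in 10M, a log2 fold change of 1.18 ± 0.14 (adjusted p 0.00159), and its domains covered 1800 and 2000 bp in eChIP and 1200 and 800 bp in 10M. TOC1 (chr5:24672601-24676400) held 151 and 139 in eChIP and 83.7 and 88.4 in 10M (0.75 ± 0.08, adjusted p 0.000998). Over the gene of TOC1 alone, domains covered 1438 and 1438 bp in eChIP and 800 and 838 bp in 10M. ELF3, a part of the evening complex, held 57.8 and 47.3 in eChIP and 38.9 and 37.4 in 10M (0.46 ± 0.13, adjusted p 0.0395). With the length offset the values of TOC1 and ELF3 were -0.24 and -0.24, against a median of -0.23 over all regions. At PRR5 the sign did not turn with that offset. Its raw reads per kb of domain were 191 and 197 in eChIP and 210 and 256 in 10M. These are not scaled for depth, which was lower in the eChIP libraries, so their order does not compare the groups.

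Set beside other libraries of the series on the scale of the mean 10M depth, the values of PRR5 were 425 and 430 in eChIP, 540 and 1238 from 1 mg of tissue, 122 and 197 in PHILO 5M and 266 and 195 in 10M. By these values the eChIP libraries lay between those of 1 mg of tissue and those of 5M and 10M. Domains of the 1 mg and 5M libraries can extend beyond the region, which those of eChIP and 10M cannot, so the scales are not fully alike. The harvest hour of any library was not given in the sources used here, and its part in these values was not tested.

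Genes of the touch, wound and jasmonate response were more often higher than lower in eChIP. The list held 19 genes, of which 17 lay in shared regions. Of these, 8 rose (JAZ7, RRTF1, JAZ10, LOX3, LOX4, WRKY40, JAZ5, JAZ1), 2 fell (CBF2, CBF1) and 7 did not pass the test, against 11.7% and 16.0% over all regions tested. The median log2 fold change was 0.18. With the recovered library size 3 were higher and 5 lower with a median of -0.10, against -0.27 over all regions in that scaling. Under the length offset none was higher and 1 was lower, with a median of -0.10 against -0.23 over all regions. Without 10M replicate 1 or 2, 5 were higher and 2 or 1 lower. JAZ8 had domains in eChIP only and CBF3 in 10M only.

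The JAZ genes encode repressors of jasmonate signalling whose transcription jasmonate itself induces. JAZ7 (chr2:14572801-14574600) held 78.8 and 63.0 CPM in eChIP and 26.5 and 25.5 in 10M, a log2 fold change of 1.44 ± 0.14 (adjusted p 0.000742). Its domains covered the whole gene of 923 bp in both eChIP libraries and 600 bp of it in both 10M libraries. JAZ10 (chr5:4214601-4222800) held 287 and 301 in eChIP and 159 and 151 in 10M (0.93 ± 0.06, adjusted p 0.000283). Domains covered all 2292 bp of the gene JAZ10 in both eChIP libraries and 2277 and 2077 bp in the 10M libraries, so the further length in eChIP lay outside the gene. At JAZ8, 163 and 229 reads were counted over 800 and 1600 bp in eChIP and no domain was called in 10M. JAZ5 and JAZ1 rose by 0.38 ± 0.07 and 0.34 ± 0.05 on the log2 scale. Allowing for covered length, JAZ5 and JAZ1 had -0.10 and -0.04, above the median of -0.23 over all regions in that fit.

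Other genes of the list rose by similar amounts. RRTF1, an ERF factor of the redox response, held 441 and 391 CPM in eChIP and 188 and 183 in 10M over a region of several genes (1.16 ± 0.07, adjusted p 0.000224). The domains covered all 1385 bp of RRTF1 in both eChIP libraries and 725 and 525 bp in the 10M libraries. LOX3 and LOX4, lipoxygenases of jasmonate synthesis, rose by 0.45 ± 0.07 and 0.39 ± 0.07, and WRKY40, a regulator of defence, by 0.39 ± 0.09, and their values with the length offset were -0.06, -0.09 and -0.03 in the same order. MYC2, the main transcription factor of the jasmonate response, stood at 407 and 378 in eChIP and 402 and 397 in 10M (-0.03 ± 0.06, adjusted p 0.754). The touch genes TCH2, TCH3 and TCH4 did not pass the test, at -0.09, -0.11 and 0.15.

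The neighbouring CBF genes, factors of the cold response, went the other way. CBF1 held 123 and 130 CPM in eChIP and 198 and 205 in 10M (-0.67 ± 0.07, adjusted p 0.000803), and its domains covered 2600 and 3200 bp in eChIP and 5000 and 5200 bp in 10M. CBF2 held 84.8 and 85.7 in eChIP and 111 and 120 in 10M (-0.44 ± 0.08, adjusted p 0.00755). CBF3, between them, had 277 and 327 reads over 800 bp in 10M and no domain in eChIP. At CBF1 the value with the length offset was 0.15.

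On the scale of the mean 10M depth, JAZ7 counted 422 and 358 in eChIP, 469 and 475 from 1 mg of tissue, 0 and 156 in PHILO 5M and 180 and 168 in 10M. RRTF1 counted 2363 and 2220 in eChIP, 2861 and 3068 from 1 mg of tissue, 1183 and 1285 in PHILO 5M and 1278 and 1211 in 10M. By these values the eChIP libraries were nearer to those of 1 mg of tissue at both genes. Domains of the 1 mg and 5M libraries can extend beyond the region, which those of eChIP and 10M cannot. The 0 at JAZ7 means that no domain was called there, not that no read was found. A domain at JAZ8 was called in both libraries of 1 mg of tissue, with 328 and 341 on this scale, and in neither PHILO 5M library.

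**Figure D4:**
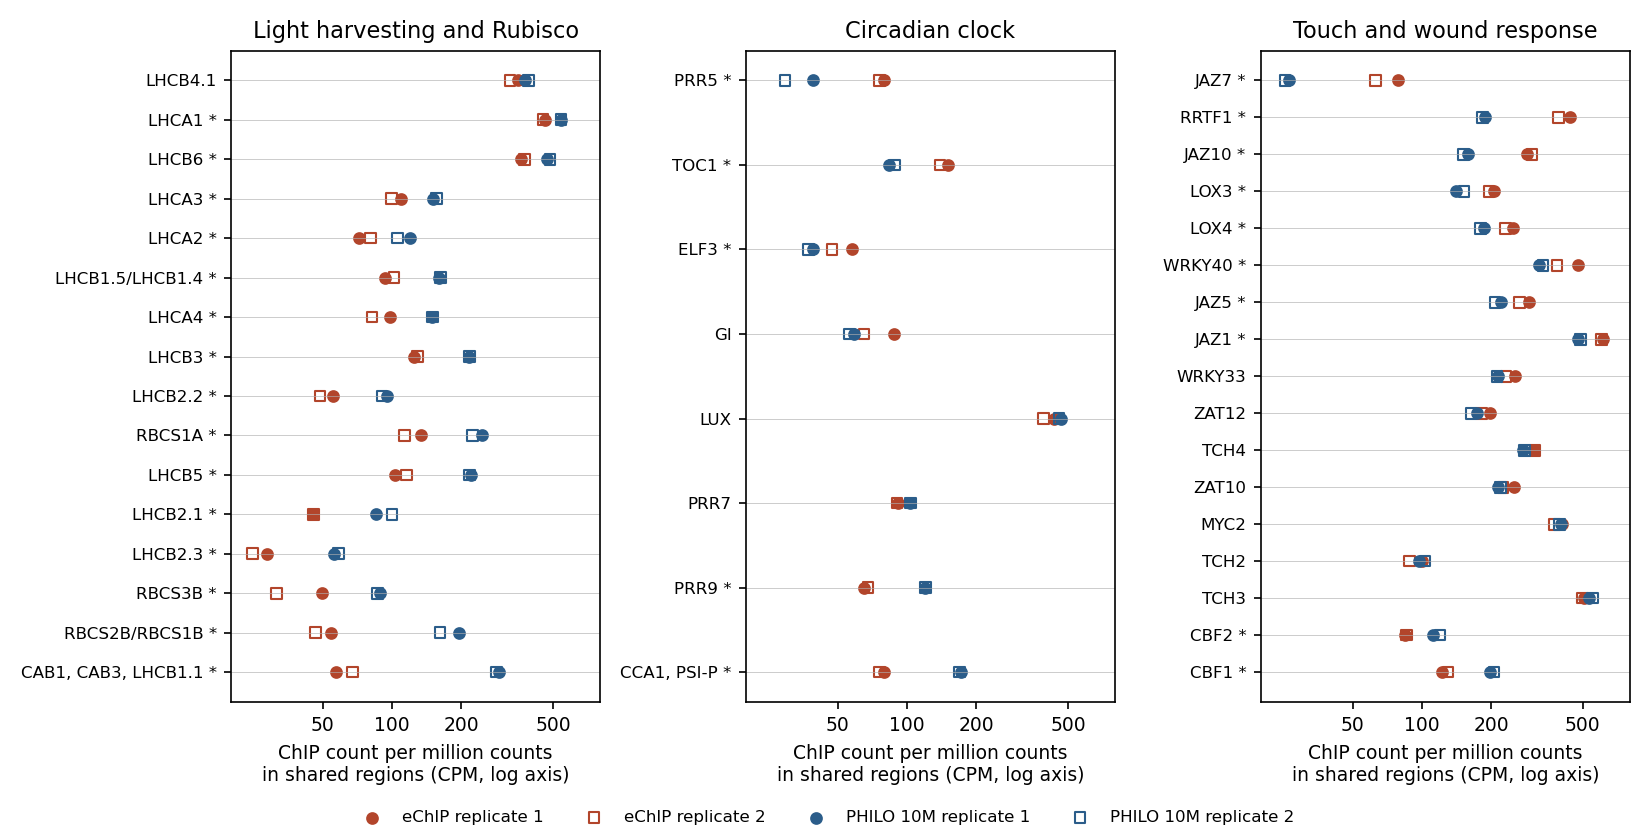
Points give the ChIP counts as CPM (log axis) in each of the 4 libraries for the regions of 3 gene lists, ordered by log2 fold change, and an asterisk marks an adjusted p under 0.05. In the left panel both eChIP libraries lie below both 10M libraries in every region, although the test was not passed at LHCB4.1, with 57.1 and 67.4 against 290 and 284 in the CAB1, CAB3 and LHCB1.1 cluster. In the right panel they lie above at JAZ7 (78.8 and 63.0 against 26.5 and 25.5) and below at CBF1.

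Of 9 common reference genes, 2 fell (GAPC2, UBQ10) and none rose, against 16.0% lower and 11.7% higher over all regions tested, with a median log2 fold change of -0.14, and without eChIP replicate 1 the number that fell was 5. TIP41L had the most even values, 39.1 and 38.8 CPM in eChIP and 38.9 and 39.1 in 10M. ACT2 stood at 281 and 266 in eChIP and 312 and 290 in 10M (-0.14 ± 0.06, adjusted p 0.149). GAPC2, a glycolytic enzyme, held 84.3 and 71.7 in eChIP and 115 and 118 in 10M (-0.58 ± 0.10, adjusted p 0.00511).

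Larger families were counted by the words of their annotated product and are set against the 11.7% higher and 16.0% lower over all regions tested. Without 10M replicate 1 or 2, the shares over all regions were 4.42% or 4.49% higher and 6.70% or 6.55% lower. Among WRKY transcription factors, which act in defence, 10 of 32 regions rose and 3 fell. WRKY18 held 581 and 537 CPM in eChIP and 222 and 208 in 10M (1.38 ± 0.06, adjusted p 0.000184), with 12400 and 13000 bp covered in eChIP and 4000 and 3400 bp in 10M over several genes. WRKY17 held 41.6 and 46.3 in eChIP and 74.7 and 69.3 in 10M (-0.71 ± 0.11). With the length offset the values of WRKY18 and WRKY17 were -0.40 and 0.12. Without 10M replicate 1 or 2, 5 or 5 WRKY regions rose and 3 or 2 fell. Among heat-shock proteins and factors, 20 of 98 regions rose and 9 fell, with a median log2 fold change of 0.10, and of 0.11 without either 10M library. With the length offset 0 heat-shock regions rose and 12 fell, and 1 WRKY region rose and 2 fell. With the recovered library size 6 heat-shock regions rose and 26 fell, and 5 WRKY regions rose and 10 fell. Over all 12663 regions, 58 rose and 1676 fell with the length offset, and 535 rose and 5260 fell with the recovered library size.

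Ribosomal proteins and core histones had few higher regions. Among ribosomal proteins, 13 of 269 regions rose and 54 fell (20.1%, against 16.0% over all regions), with a median log2 fold change of -0.11. Without 10M replicate 1 or 2, 3 or 0 rose and 8 or 12 fell, a smaller share than the 6.70% or 6.55% over all regions. AT3G45030, which encodes a small-subunit ribosomal protein, held 30.0 and 28.8 CPM in eChIP and 57.6 and 61.4 in 10M (-1.02 ± 0.11). Among core histones, 1 of 35 regions rose and 9 fell, and none fell without either 10M library. The one that rose, HTA2, an H2A histone, shares its region with AT4G27220, a gene of an immune receptor, and held 49.7 and 56.1 in eChIP and 25.1 and 31.5 in 10M (0.90 ± 0.15, and -0.37 with the length offset).

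Among cytochromes P450, 12 of 95 regions rose (12.6%, against 11.7% over all regions) and 31 fell (32.6%, against 16.0%), with a median of -0.16. With the length offset 0 of them rose and 26 fell. CYP715A1 held 186 and 211 CPM in eChIP and 58.9 and 75.5 in 10M (1.56 ± 0.13), in a region shared with AT5G52410. CYP78A6, which promotes seed growth, held 32.1 and 32.5 in eChIP and 71.0 and 73.9 in 10M (-1.16 ± 0.10) over 1600 and 1800 bp in eChIP and 1800 bp in both 10M libraries. Among proteins of the cell wall, 21 of 119 regions rose (17.6%) and 35 fell (29.4%), from 2.01 ± 0.16 at AT5G45280, a pectin acetylesterase, to -2.31 ± 0.09 at AT3G53190, a pectin lyase-like protein. With the length offset AT5G45280 had -0.58, and 1 cell-wall region rose and 25 fell. Without 10M replicate 1 or 2, 8 or 9 cytochrome P450 regions were higher and 21 or 20 lower, and 10 or 14 cell-wall regions were higher and 18 or 18 lower.

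The other families were read against the same 11.7% higher and 16.0% lower. Immune receptors of the NLR type had 20 of 104 regions higher and 14 lower, from 1.53 ± 0.16 at AT5G18360 to -1.16 ± 0.13 at AT5G46270, whose values with the length offset were -0.53 and 0.11. With that offset 0 NLR regions were higher and 21 lower, and 2 receptor kinase regions were higher and 35 lower. Receptor kinases had 33 of 183 higher (18.0%) and 48 lower (26.2%), with IOS1, a kinase of immunity, at 156 and 156 CPM in eChIP and 56.6 and 57.1 in 10M (1.46 ± 0.08). Pentatricopeptide proteins, which process organelle RNA, had 19 of 213 higher and 18 lower, F-box proteins 20 of 166 higher and 24 lower, tRNA genes 18 of 118 higher and 17 lower and pseudogenes 34 of 225 higher and 38 lower. Of 46 transposable element genes, 9 lay in shared regions, and of these 1 was higher and none lower. Without 10M replicate 1 or 2, 10 or 12 NLR regions were higher and 7 or 7 lower, and 16 or 17 receptor kinase regions were higher and 20 or 18 lower.

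The 5 regions of lowest p showed how far domains could differ in length. Around AT5G01380, a homeodomain-like factor, and AT5G01390, a chaperone of the DnaJ family (chr5:152801-162400), 419 and 391 CPM were counted in eChIP and 72.8 and 82.3 in 10M (2.38 ± 0.08, adjusted p 6.51e-05). The domains covered 9400 and 9600 bp in eChIP and 1000 and 1400 bp in 10M, and per covered length the value turned to -0.62. FBA7 and FBA5, fructose-bisphosphate aldolases of central carbon metabolism, held 43.2 and 43.4 in eChIP and 202 and 205 in 10M (-2.23 ± 0.08), over 1600 and 1400 bp in eChIP and 5200 and 4800 bp in 10M. AT3G53190 held 28.9 and 28.6 in eChIP and 140 and 145 in 10M (-2.31 ± 0.09). AT2G29290 and AT2G29300, oxidoreductases of the Rossmann fold, held 37.0 and 32.7 in eChIP and 143 and 143 in 10M (-2.04 ± 0.09). The last of the 5 was the CAB3 cluster. On the scale of the mean 10M depth, the region of AT5G01380 counted 2245 and 2221 in eChIP and 496 and 544 in 10M. The libraries of 1 mg of tissue had 2531 and 2794 there. At FBA7 and FBA5 the values were 232 and 246 in eChIP, 307 and 347 from 1 mg of tissue and 1374 and 1356 in 10M. AT3G53190 had 554 and 562 from 1 mg of tissue, between eChIP (155 and 162) and 10M (955 and 959).

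Where every library covered at least 80% of a region, the changes were smaller in the upward direction. Of 3796 such regions, 697 rose and 925 fell when they were fitted alone. In the fit over all regions, the 12 that rose most and included a start site had log2 fold changes from 0.46 to 1.04. AT5G64450, an NYN domain protein, led with 52.2 and 44.6 CPM in eChIP and 22.5 and 24.6 in 10M (1.04 ± 0.14, adjusted p 0.00258). AGP2, an arabinogalactan protein of the cell surface, held 42.7 and 41.7 in eChIP and 23.6 and 25.9 in 10M (0.77 ± 0.13). ATG8H, a ubiquitin-like protein of autophagy, rose by 0.52 ± 0.12 and CPK31, a calcium-dependent kinase, by 0.50 ± 0.12. The others were AT2G28120, GCL1, AT5G01075, AT5G28630, AT1G36622, AT1G51538, AT1G54260 and AT5G65925.

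The 12 such regions that fell most had log2 fold changes from -0.83 to -1.26. AT1G33102, with no known product, held 27.5 and 25.4 CPM in eChIP and 61.7 and 64.7 in 10M (-1.26 ± 0.11, adjusted p 0.000617). CYP71B12, a cytochrome P450, held 37.2 and 39.0 in eChIP and 83.2 and 85.9 in 10M (-1.15 ± 0.10). ACP4, the main acyl carrier protein of leaf fatty acid synthesis, held 64.5 and 58.6 in eChIP and 120 and 107 in 10M (-0.89 ± 0.10). HYR1, a glycosyltransferase, held 65.2 and 73.6 in eChIP and 145 and 153 in 10M. EMB3108, an RNA helicase, fell by 0.95 ± 0.08 and PDLP2, a protein of plasmodesmata, by 0.85 ± 0.09 on the log2 scale. The others were AT5G51010, AT5G49555, AT5G22390, UMAMIT46, AT3G62695 and PRR9. At all 24 regions the groups did not overlap, as the rule of their choice required.

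Whole genes lacked a domain more often in eChIP than in 10M. Of 27444 protein-coding genes, 725 had covered bases in both 10M libraries and none in either eChIP library, and 218 had them in both eChIP libraries and none in either 10M library. Domains covered more of the gene in both eChIP libraries at 5023 genes and less at 1637.

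The 127 eChIP-only regions were weak and of the same median length as the shared regions. That length was 1600 bp in both sets, and 1400 bp over all merged regions. Their median GC content was 35.3%, against 39.0% over all merged regions. The median ChIP count in them was 154 and 173 in the eChIP libraries, and the median deposited log2 fold change over IgG was 0.90 and 0.96, against 1.66 and 1.69 in the shared regions of the same libraries. By position, 48 included a start site (37.8%, against 50.8% of all merged regions) and 40 lay inside a gene (31.5%, against 41.8%). At a gene end lay 13 (10.2%, against 4.28%), between genes 16, within 1 kb upstream of a gene 6 and at other annotated genes 4. The share between genes was 12.6%, against 0.753% of all merged regions.

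The 767 10M-only regions were short and lay mostly inside genes. Their median length was 800 bp and their median GC content 40.3%. The median count was 121 and 138 in the 10M libraries, and the median deposited log2 fold change was 1.403 and 1.355, against 2.23 and 2.17 in the shared regions of those libraries. Inside a gene lay 522 of them (68.1%, against 41.8% of all merged regions), and 120 included a start site (15.6%, against 50.8%). At a gene end lay 45 (5.87%, against 4.28%), at other annotated genes 49 (6.39%, against 2.09%), between genes 23 and within 1 kb upstream 8. Since presence chose these regions, no test of presence or count between the groups was made. The IgG count per kb was similar, with a median of 73.3 in the eChIP-only regions and 70.6 in the 10M-only regions.

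By the deposited log2 fold change, the strongest eChIP-only regions in genes were weak ones, and 9 of the first 10 lay inside the gene. In FLC, the repressor of flowering that cold silences (chr5:3173401-3174200), 135 and 108 reads were counted over 800 and 600 bp in the eChIP libraries. This region also overlaps AT5G01675 and lies far from the start site of FLC, at 3179448 on the reverse strand. That start site was covered in none of the 4 libraries. HSFA6B, a heat-stress factor, had 88 and 73 reads. NAC019, a factor of the jasmonate and abscisic acid responses, had 133 and 153. PHT1;9, a phosphate transporter, had 129 and 137, and RFC1, a subunit of the clamp loader in DNA replication, had 88 and 97. The others were NSP4, AT1G52650, AT1G17665, RBL7 and PP2C5. The deposited log2 fold change was at least 1.38 in both libraries in all 10, and 76.7% of the 31-base windows at NSP4, a nitrile-specifier protein with close relatives, occur again in the genome. In the gene lists, JAZ8, WRKY29, HSFA6B, CRK5, LRX2 and XTR6 were among the eChIP-only genes.

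The strongest 10M-only regions in genes had higher values over IgG. AGP4, an arabinogalactan protein, had 123 and 146 reads over 400 bp in the 10M libraries, with a deposited log2 fold change of 2.86 and 2.96. PTL, a trihelix factor that shapes sepals and petals (chr5:957801-958400), had 188 and 209 reads. AT1G64620, a Dof zinc finger factor, had 340 and 441 over 1200 bp. AT1G78995 had 357 and 349 over 800 bp. The others were AT1G23205, AT4G11870, AT3G22560, AT3G57500, PGLP1 and AT5G36790. The regions of PGLP1, the phosphatase of photorespiration, and of its copy AT5G36790 consist wholly of windows of 31 bases that occur more than once, so their counts are those of both genes. From the short gene lists, SHR, which patterns the root, RVE8 and CBF3 were 10M-only. The larger families held more, with 16 cell-wall, 11 cytochrome P450, 9 receptor kinase and 9 F-box genes. The eChIP-only genes of these families numbered 2, 0, 2 and 1 in the same order. WRKY and heat-shock genes had 1 in each set. Among all regions, 767 were 10M-only and 127 eChIP-only.

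The regions of one group were found unequally in the other 24 libraries of the series. Of the 127 eChIP-only regions, 116 overlapped no domain in any of the 14 libraries of the depth and cycle series (0.5M to 5M and 10 to 14 PCR cycles), and a single library of these held 0 to 3.94% of them. The libraries of 1 mg of tissue held 74.0% and 74.8%, those of 500K and 100K nuclei 55.1% to 68.5%, those of 20K nuclei 22.8% and 25.2%, and those of CUT&Tag, which cuts chromatin in place and whose domains covered 27.1 and 34.2 Mb, 63.8% and 77.2%. Only 4 of the 127 were absent from all 10 of these libraries. The 10M-only regions were held at 48.8% and 67.0% by the PHILO 5M libraries, at 2.48% and 6.39% by the 0.5M libraries, at 21.4% and 36.1% by those of 1 mg of tissue, at 1.96% to 42.2% by those of nuclei, and at 38.6% and 54.0% by CUT&Tag. For comparison, the shared regions were held at 56.9% to 99.3% by the depth and cycle libraries and at 77.3% to 99.7% by the other 10.

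**Figure D5:**
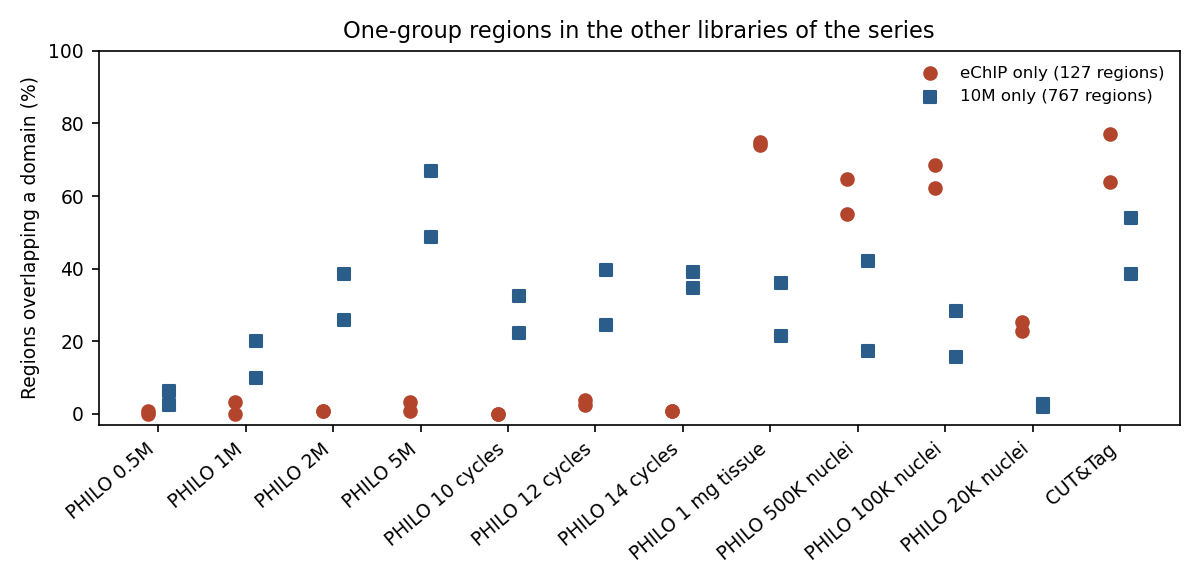
Points give the percentage of the 127 eChIP-only regions and of the 767 10M-only regions that overlap a domain by at least 1 bp, in each of the other 24 libraries, grouped along the x axis. The eChIP-only regions stay at or under 3.94% in the depth and cycle libraries and reach 74.0% and 74.8% with 1 mg of tissue, while the 10M-only regions climb with labelled depth to 67.0% in a 5M library.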

How the data were processed

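H3K9ac ChIP-seq of 2 eChIP and 2 PHILO 10M libraries was used, with the other 24 libraries for reference. Reads were aligned to TAIR10 with Bowtie2, and domains were called per library with epic2 against IgG (the submitters' processing notes list SICER 0.0.52). The caller's window, gap and FDR settings, and the handling of duplicate and multiply aligned reads, were not given in the sources used here. The authors deposited, per domain, raw ChIP counts and raw IgG counts. The deposited log2 fold change is ChIP over IgG, each divided by its library size, the deposited score is 100 times that value, and the deposited p-value and FDR test the domain against IgG. Counts outside domains were not used here, so a longer domain has a higher count, and a region with no domain carries no count.

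Domains on chromosomes 1 to 5 were merged where they overlapped by at least 1 bp, and counts were summed per region and library. The ratio of IgG to ChIP library size, recovered from the log2 fold change and the counts, gave relative depth. Regions with a domain in all 4 libraries were tested with edgeR 4.0.16 (R 4.3.3, quasi-likelihood, TMM, no filter), and p-values were adjusted by Benjamini-Hochberg over all 12663. The 1041 domains of identical borders were fitted alone. The test was checked on simulated counts that gave all 4 libraries the same dispersion. That check did not cover the unequal spread of the eChIP and 10M pairs or counts that grow with called length. Library values were compared by exact two-sided permutation. Alternatives were DESeq2 1.42.0, other scalings, an offset for covered length, stricter filters, a replicate block and each library left out. Same-numbered libraries did not deviate together (correlation of the replicate differences of 0.00409). Genes were taken from the RefSeq annotation of TAIR10.1. Named regions were the members of the gene lists, the 5 of lowest p, the 12 of greatest change in each direction covered to at least 80% in each library, starting at 1 gene start or more and not overlapping between groups, the extremes of each family, and the 10 strongest regions of each group alone. The regions and lists were chosen with earlier results of these data known.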

Additional observations from a re-analysis of the deposited data

How the results depend on the processing

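The 3514 regions that differed became 5795 with the recovered library size (9.23% higher in eChIP), 1734 with an offset for covered length (3.34% higher) and 1622 among the 3796 regions of which every library covered 80% or more, a smaller number tested. With 1 library left out the count ran from 1397 to 4988. Of the 1041 domains of identical borders, 429 differed, and the number was 883 with the recovered library size (0.340% higher), 163 with DESeq2 (22.1% higher) and 271 to 334 with 1 library left out. With the replicate number as a block the counts were 3359 and 421, and the numbers mark no stated pairing. The difference in reach upstream of the start site was 65.1 bp by the mean over regions in place of the median, that of ChIP over IgG was -1.62 in the domains of identical borders, and that of the median log2 fold change between quartiles was -0.091 with quartiles from 1 mg of tissue. The 127 eChIP-only regions fell to 73 at a deposited FDR of at most 1e-10 and to 42 at a deposited log2 fold change of at least 1. With the offset for covered length the sign turned at 18 of 94 named regions, with log2 fold changes of -0.62 at AT5G01380 and AT5G01390, 0.22 at LHCB2.3, -0.24 at ELF3, 0.052 at the region of CCA1 and PSI-P, -0.24 at TOC1, -0.10 at JAZ5, -0.065 at LOX3, -0.036 at JAZ1, -0.093 at LOX4, -0.026 at WRKY40, 0.15 at CBF1, -0.78 at LOS1, -0.37 at HTA2, 0.12 at WRKY17, -0.40 at WRKY18, 0.11 at AT5G46270, -0.53 at AT5G18360 and -0.58 at AT5G45280. Over all alternatives the named regions kept direction and side of the threshold 999 times, lost the threshold 99 times and passed it newly 29 times. Under the offset for covered length the median log2 fold change of all regions was -0.23, so a turned sign there is relative to 0 and not to the median region. Having 2 libraries a group limits every exact test to the p given beside it.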
